A study of Arabidopsis thaliana with 12 samples.

Results

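A set of 10 genes that steer the iron deficiency response of Arabidopsis thaliana was followed through 12 RNA-seq libraries: the peptide genes IMA1 (AT1G47400), IMA2 (AT1G47395) and IMA3 (AT2G30766), the clade Ib transcription factor genes bHLH38 (AT3G56970), bHLH39 (AT3G56980), bHLH100 (AT2G41240) and bHLH101 (AT5G04150), and the regulator genes FIT (AT2G28160), PYE (AT3G47640) and BTS (AT3G18290). They were taken by identifier and make up 10 of the 23893 genes in the deposited table. The libraries came from whole seedlings of age 7 days, kept in short days at 21 °C, in 4 genotypes with 3 libraries each. Col was the wild type, h3.3kd (genotype label h3.3kd-1) a line with reduced histone variant H3.3, h2a.z a mutant of the variant H2A.Z, and the line that combines both, h3.3kd;h2a.z, is called the double mutant here. The labels do not name the alleles behind h3.3kd or h2a.z, and they do not say whether libraries of a genotype came from separately grown plants, so the tests measure the spread among these libraries, which may be technical. No library was labelled as grown with altered iron supply.

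Plants sense low iron through a chain of transcription factors and their inhibitors. BTS is a ubiquitin ligase that marks clade IVc bHLH factors such as ILR3 for degradation, and the small IMA peptides bind BTS and keep it from doing so. The clade IVc factors switch on the IMA genes, PYE, BTS and the clade Ib bHLH genes, and the clade Ib proteins pair with FIT in roots to switch on the iron reductase and transporter genes of uptake. PYE is a repressor that limits genes of iron chelation and movement.

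The IMA genes differ in sequence in a way that matters for whether their reads can be told apart. Their coding sequences are shown here for that reason, from RefSeq on the plus strand of TAIR10.1, with the last 54 bases, stop codon included, in capitals; the IMA peptides are known for a conserved end that this stretch encodes.
IMA1: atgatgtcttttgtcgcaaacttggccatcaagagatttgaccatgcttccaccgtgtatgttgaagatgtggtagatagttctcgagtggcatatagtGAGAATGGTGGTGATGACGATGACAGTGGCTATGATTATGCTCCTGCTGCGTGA
IMA2: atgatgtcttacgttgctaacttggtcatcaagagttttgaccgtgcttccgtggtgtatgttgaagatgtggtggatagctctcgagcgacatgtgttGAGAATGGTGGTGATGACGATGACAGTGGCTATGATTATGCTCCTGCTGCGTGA
IMA3: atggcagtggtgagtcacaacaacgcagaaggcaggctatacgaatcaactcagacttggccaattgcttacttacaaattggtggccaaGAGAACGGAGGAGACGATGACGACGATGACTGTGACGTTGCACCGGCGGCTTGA
The capital stretch was identical in IMA1 and IMA2 (54 of 54 bases), while IMA3 matched either of them at 37 of 54. Over the whole aligned coding sequence IMA1 and IMA2 were 88.9% identical, against 49.4% for IMA1 with IMA3. In TAIR10.1 IMA1 lies on chromosome 1 at 17385707 to 17386485 and IMA2 nearby at 17382998 to 17383830, both on the plus strand. Of the 30-base words in the transcript of IMA1, 30 of 750 occurred in IMA2, and no pair of the 10 genes shared a 100-base word. The shared stretch leaves reads of IMA1 and IMA2 that fall within it uncertain; the genes were not compared with the rest of the genome.

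The promoters of BTS, bHLH38 and bHLH100 are shown because they alone among the 10 held a G-box (CACGTG, a palindrome and so the same on both strands, and 1 form of the bHLH recognition word CANNTG) in the window from 250 bases before to 50 bases after the gene start. They were read from RefSeq on TAIR10.1, with the G-boxes in capitals.
BTS, plus strand, chr3:6273716-6274015: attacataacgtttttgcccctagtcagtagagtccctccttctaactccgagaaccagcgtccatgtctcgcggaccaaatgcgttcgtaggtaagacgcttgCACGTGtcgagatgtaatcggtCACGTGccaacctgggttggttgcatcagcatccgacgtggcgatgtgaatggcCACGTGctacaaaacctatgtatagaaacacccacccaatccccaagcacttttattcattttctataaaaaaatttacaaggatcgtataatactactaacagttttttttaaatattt
bHLH38, minus strand, chr3:21085196-21085495: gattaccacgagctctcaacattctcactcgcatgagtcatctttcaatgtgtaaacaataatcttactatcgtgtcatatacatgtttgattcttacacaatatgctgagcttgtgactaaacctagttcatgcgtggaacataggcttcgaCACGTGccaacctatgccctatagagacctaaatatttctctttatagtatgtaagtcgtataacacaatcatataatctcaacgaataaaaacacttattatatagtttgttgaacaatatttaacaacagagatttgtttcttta
bHLH100, minus strand, chr2:17199405-17199704: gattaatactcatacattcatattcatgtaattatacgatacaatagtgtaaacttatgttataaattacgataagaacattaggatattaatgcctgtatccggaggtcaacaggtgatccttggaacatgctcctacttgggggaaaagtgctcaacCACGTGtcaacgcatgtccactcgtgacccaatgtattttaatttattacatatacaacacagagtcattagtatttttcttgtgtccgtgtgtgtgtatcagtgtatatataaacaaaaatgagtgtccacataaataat
BTS held 3 G-boxes, whose first bases lay 146, 124 and 70 bases before its start. The G-box lay 97 bases before the start of bHLH38 and 91 bases before that of bHLH100. The word occurred in 1711 of the 18760 promoters of tested genes read the same way (9.1%), and CANNTG in 62.5%. These matches describe the letters of the windows and are not sites measured in this study.

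The deposited values were TPM, read counts per gene length scaled to the same total of 1000000 in each library. Multiplying each by the length of its gene from start to end, introns included, gave whole reads within 0.01 for 99.98% of the values above 0 in every library, which recovers the depth: 21500000 to 33300000 reads in 11 libraries and 5740000 in h2a.z replicate 1. The genotype labels were checked on the histone genes. Of the H3.3 genes, HTR4 fell from 386 ± 3.41 TPM in Col to 36.2 ± 1.73 in h3.3kd, with the double mutant at 35.4 ± 5.24 (SD, n = 3), and HTR8 likewise, whereas HTR5 went from 250 ± 12 TPM in Col to 207 ± 2 in h3.3kd. Of the H2A.Z genes, HTA11 fell from 24.4 ± 1.25 TPM to 2.86 ± 0.425 in h2a.z, with the double mutant at 1.69 ± 0.184, while HTA9 retained 32.8 ± 4.06 TPM in h2a.z, with the double mutant at 60.5 ± 7, against 161 ± 8.5 in Col. HTA9 was thus higher in the double mutant than in h2a.z (log2 difference 0.87, adjusted p = 1.63e-06), with an interaction of 1.22 (adjusted p = 1.36e-05). The part of this difference in the regulators' values for the double mutant against h2a.z and for the interaction was not tested.

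A gene is said to have risen, fallen or been called where limma, fitted to log2(TPM + 1) of the 18851 genes with a mean of at least 1 TPM, gave a Benjamini-Hochberg adjusted p below 0.05 over all those genes. This scale understates the change of genes with few reads. All 10 regulators passed the filter. bHLH100 and bHLH101 were below 1 TPM in every h3.3kd library and passed through the other genotypes. The h3.3kd means of IMA3 (0.912 TPM) and bHLH38 (0.852 TPM) were also below 1, as was the double mutant mean of bHLH101 (0.963 TPM).

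In h3.3kd all 10 regulators fell. Over all genes tested 26.7% fell and 9.12% rose in the same comparison, or 35.9% in either direction, and the median log2 fold change was -1.02 over the regulators against -0.11 over all genes. In h2a.z 5 regulators fell (the 3 IMA genes, PYE and BTS) and bHLH39 rose, against 18.3% of all genes falling and 28.9% rising, 47.2% in all. In the double mutant 8 fell and none rose against Col, where 30.7% of all genes fell and 20.3% rose, 51.0% in all; the exceptions were bHLH38 and bHLH39. The libraries of h3.3kd, h2a.z and the double mutant did not overlap with Col for 10, 6 and 7 regulators, against 55.5%, 55.6% and 55.9% of all genes. The split between higher and lower calls over all genes depends on the scaling: with TPM rescaled between libraries, 3241 of 6365 called genes were higher in h3.3kd (1720 of 6762 as reported), 4583 of 9343 in h2a.z (5449 of 8900) and, for the double mutant, 5042 of 9959 (3826 of 9611). The 3 comparisons share the Col libraries. Without the shallow h2a.z replicate 1, the counts called were 10, 7 and 8.

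**Figure D1:**
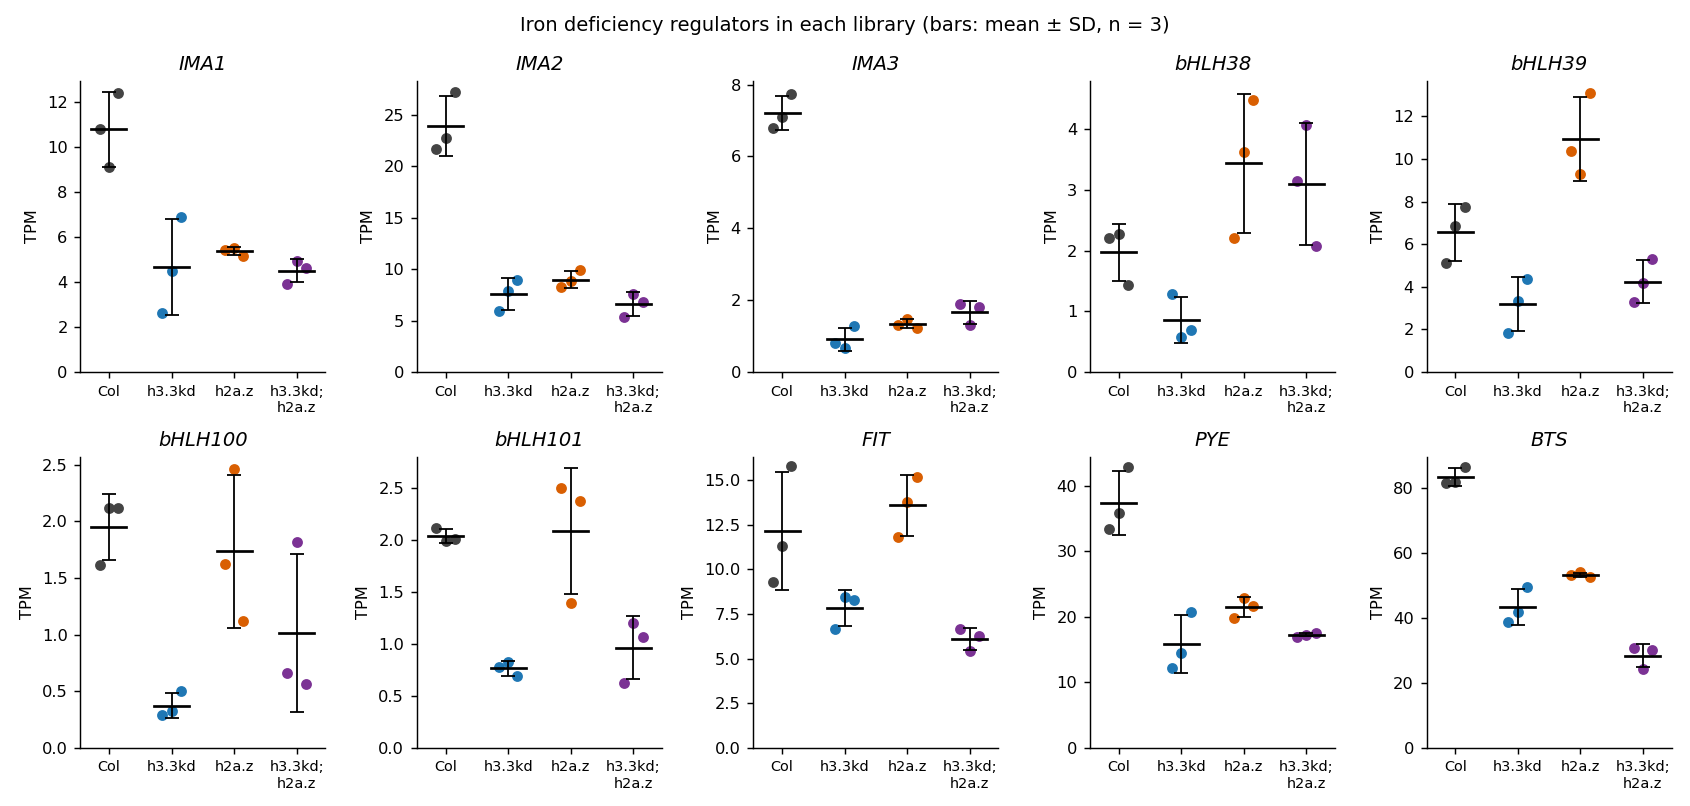
TPM of each regulator in each library (points), with the mean and SD of 3 libraries as bars, for Col, h3.3kd, h2a.z and the double mutant, each panel on its own axis from 0. The IMA genes, PYE and BTS are below Col in all 9 mutant libraries, whereas the bHLH genes and FIT overlap with Col or exceed it in h2a.z.

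The IMA peptide genes, whose products protect clade IVc factors from BTS, were below every Col library in all 9 mutant libraries. IMA3 had 6.79, 7.1 and 7.74 TPM in the Col libraries, while h3.3kd had 0.795, 0.669 and 1.27, h2a.z had 1.32, 1.48 and 1.23 and the double mutant had 1.9, 1.3 and 1.8. This was the largest fall among the 10 in both single mutants, to 12.6% of the Col mean in h3.3kd and 18.6% in h2a.z, with the double mutant at 23.1%. The log2 fold change was -2.11 (SE 0.14, adjusted p = 7.15e-08) in h3.3kd, -1.81 (adjusted p = 1.43e-07) in h2a.z and -1.63 (adjusted p = 3.35e-07) in the double mutant.

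IMA2, the most abundant IMA gene per length, had 21.7, 22.8 and 27.2 TPM in the Col libraries, while h3.3kd had 5.94, 7.91 and 8.92, h2a.z had 8.27, 8.81 and 9.9 and the double mutant had 5.39, 7.6 and 6.85. No mutant library reached the Col range, and every double mutant library was below every h2a.z library, with h3.3kd overlapping both. Its log2 fold change was -1.54 (SE 0.14, adjusted p = 1.24e-06) in h3.3kd, -1.31 (adjusted p = 3.14e-06) in h2a.z and -1.71 (adjusted p = 1.59e-07) in the double mutant. IMA1 had 10.8, 9.09 and 12.4 TPM in the Col libraries, while h3.3kd had 2.61, 4.48 and 6.89, h2a.z had 5.4, 5.51 and 5.17 and the double mutant had 3.92, 4.91 and 4.63. The h3.3kd libraries of IMA1 were the most spread and enclosed the libraries of both other mutants. Its log2 fold change was -1.12 (SE 0.2, adjusted p = 0.000699) in h3.3kd, -0.88 (adjusted p = 0.00266) in h2a.z and -1.1 (adjusted p = 0.000421) in the double mutant.

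The balance among the IMA genes was described by ratios within a library. IMA2 over IMA3 was 3.3 ± 0.177 in Col, with h3.3kd at 8.77 ± 2.66, h2a.z at 6.75 ± 1.14 and the double mutant at 4.17 ± 1.55 (SD, n = 3). IMA2 over IMA1 was 2.23 ± 0.254 in Col and 1.47 ± 0.0856 in the double mutant. With 3 libraries against 3, the two-sided exact permutation test cannot go below p = 0.1, so no ratio could pass, and over the 20 ratio tests the smallest adjusted p was 0.222. The IMA3 locus overlaps AT2G30760 and AT2G30770 on the opposite strand in TAIR10.1. The sources used here do not say whether reads were counted by strand. If they were not, reads in the overlaps could not be told apart from those of IMA3, and how such reads were handled is not known.

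The 4 clade Ib bHLH genes, which encode the partners of FIT, all fell in h3.3kd but did not move together in h2a.z. bHLH39 had 5.11, 6.84 and 7.73 TPM in the Col libraries, while h3.3kd had 1.85, 3.35 and 4.35, h2a.z had 10.4, 9.28 and 13.1 and the double mutant had 3.27, 4.18 and 5.3. In the reported fit it was the 1 regulator that rose in a mutant, though bHLH38 was called as higher under some other settings, given below. For bHLH39 every h2a.z library was above every Col library and every h3.3kd library below, while the double mutant overlapped the bottom of the Col range. The log2 fold change was -0.89 (SE 0.21, adjusted p = 0.00491) in h3.3kd and 0.66 (SE 0.21, adjusted p = 0.0192) in h2a.z. The rise in h2a.z was no longer called when Col replicate 1 was left out (0.51, adjusted p = 0.0924) or h2a.z replicate 3 was (0.54, adjusted p = 0.0794). In the double mutant bHLH39 was at -0.53 with an adjusted p of 0.0502. It was called without Col replicate 1 (-0.67, adjusted p = 0.0303) or double mutant replicate 3 (-0.67, adjusted p = 0.0308). The same held without h3.3kd replicate 1 or 3 (adjusted p = 0.0205 and 0.0344) or h2a.z replicate 3 (adjusted p = 0.0473). A replicate block (adjusted p = 0.00562) and a fit of only Col and the double mutant (adjusted p = 0.0242) also called it.

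bHLH38, the tandem neighbour of bHLH39 on chromosome 3 with 83.1% coding identity to it, had 2.21, 2.28 and 1.43 TPM in the Col libraries, while h3.3kd had 1.29, 0.576 and 0.694, h2a.z had 2.21, 3.62 and 4.49 and the double mutant had 3.15, 4.07 and 2.07. These values rest on 7 to 67 reads per library, and 11 of its 1053 30-base words also occur in bHLH39, so a small part of them is uncertain. It was low in h3.3kd, where no library reached the Col range, and overlapped Col in both other mutants. The fall in h3.3kd was -0.69 (SE 0.22, adjusted p = 0.0268) and was lost without Col replicate 1 (adjusted p = 0.0899), Col replicate 2 (0.089), h3.3kd replicate 2 (0.101) or h3.3kd replicate 3 (0.0839). In h2a.z it was at 0.56 with an adjusted p of 0.0547. Without the shallow h2a.z replicate 1 it was called at 0.77 (adjusted p = 0.0112). It was also called without h3.3kd replicate 1 (0.0499) or double mutant replicate 2 (0.0434) or 3 (0.0415). Other settings that called it were library weights (0.59, adjusted p = 0.0125), fitting only Col and h2a.z (0.56, 0.0481) and limma voom on the recovered reads (0.85, 0.0309). In the double mutant bHLH38 was at 0.44 (adjusted p = 0.114), called without double mutant replicate 3 (0.64, adjusted p = 0.0388) and with voom (0.73, adjusted p = 0.0456). bHLH38 overlaps AT3G56960 on the opposite strand, so reads of the 2 genes cannot be told apart without strand.

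bHLH100 had 1.61, 2.12 and 2.12 TPM in the Col libraries, while h3.3kd had 0.287, 0.328 and 0.501, h2a.z had 1.62, 2.46 and 1.12 and the double mutant had 0.657, 1.82 and 0.565. It was read 6, 6 and 11 times in the h3.3kd libraries, so its level there, 19.1% of Col, is imprecise. The log2 fold change was -1.1 (SE 0.22, adjusted p = 0.00143) in h3.3kd, and -2.23 (adjusted p = 0.000779) when limma voom was run on the recovered reads. In h2a.z it was at -0.13 (adjusted p = 0.647). In the double mutant it was at -0.6 (adjusted p = 0.0343) although 1 library, at 1.82 TPM, lay inside the Col range. The call was lost without Col replicate 2 (0.0934) or 3 (0.0925) and without double mutant replicate 1 (0.116) or 3 (0.144). It was also lost with TPM rescaled between libraries (adjusted p = 0.0523) and with library weights (-0.54, adjusted p = 0.0607).

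bHLH101 had 2.11, 1.99 and 2.01 TPM in the Col libraries, while h3.3kd had 0.775, 0.824 and 0.686, h2a.z had 2.5, 1.39 and 2.37 and the double mutant had 0.623, 1.2 and 1.06. Both genotypes with reduced H3.3 lay wholly below Col, and h2a.z spread on both sides of it. It fell by 0.79 (SE 0.16, adjusted p = 0.00193) in h3.3kd and by 0.64 (adjusted p = 0.00461) in the double mutant on the log2(TPM + 1) scale, and was at 0.0 (adjusted p = 0.991) in h2a.z. bHLH101 overlaps AT5G04140, which lies on the opposite strand and has the same limit for unstranded counting.

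FIT, the root factor needed for the induction of iron uptake, had 9.32, 11.3 and 15.8 TPM in the Col libraries, while h3.3kd had 6.65, 8.48 and 8.3, h2a.z had 11.8, 13.8 and 15.2 and the double mutant had 6.65, 5.41 and 6.25. It was low in both genotypes with reduced H3.3 and within the Col range in h2a.z. The log2 fold change was -0.55 (SE 0.15, adjusted p = 0.0122) in h3.3kd, 0.18 (adjusted p = 0.366) in h2a.z and -0.86 (adjusted p = 0.000302) in the double mutant. The h3.3kd call rested on individual libraries, being lost without Col replicate 3 (-0.36, adjusted p = 0.06) or h3.3kd replicate 1 (-0.45, adjusted p = 0.0605); without Col replicate 3, FIT was called as higher in h2a.z (0.37, adjusted p = 0.0432).

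PYE, the repressor of the pathway, had 33.5, 35.9 and 42.9 TPM in the Col libraries, while h3.3kd had 12.2, 14.5 and 20.8, h2a.z had 19.9, 22.9 and 21.6 and the double mutant had 17, 17.3 and 17.5. Every mutant library was below every Col library, and the double mutant lay inside the h3.3kd range. PYE fell by 1.22 (SE 0.14, adjusted p = 1.28e-05) in h3.3kd, by 0.77 (adjusted p = 0.000426) in h2a.z and by 1.07 (adjusted p = 1.89e-05) in the double mutant on the log2(TPM + 1) scale.

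BTS, the ubiquitin ligase gene and the most highly expressed of the 10, had 81.4, 81.7 and 86.4 TPM in the Col libraries, while h3.3kd had 38.7, 41.6 and 49.3, h2a.z had 53, 53.9 and 52.6 and the double mutant had 30.6, 24.3 and 30. The 4 groups did not overlap, in the order Col, h2a.z, h3.3kd, double mutant. BTS was read at least 914 times in each library and had the smallest SE of the 10. Its log2 fold change was -0.93 (SE 0.09, adjusted p = 2.49e-06) in h3.3kd, -0.63 (adjusted p = 5.15e-05) in h2a.z and -1.53 (adjusted p = 6.37e-09) in the double mutant. BTS over PYE within a library was 2.24 ± 0.211 in Col, with h3.3kd at 2.8 ± 0.401, h2a.z at 2.48 ± 0.162 and the double mutant at 1.64 ± 0.205 (SD, n = 3).

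Because the deposited TPM used the length of the gene with introns, levels of different genes were compared after dividing the recovered reads by exonic length and scaling to the same total as TPM. On that scale BTS stood at 92.8 ± 3.36 in Col, PYE at 46.7 ± 6.25, and IMA2 at 18.2 ± 2.25 (SD, n = 3). FIT at 10.8 ± 2.99, IMA1 at 8.2 ± 1.27 and IMA3 at 7.97 ± 0.562 did not differ beyond their spread, and bHLH39 followed at 5.43 ± 1.12. The lowest levels were those of bHLH100 at 1.82 ± 0.282, bHLH101 at 1.75 ± 0.047 and bHLH38 at 1.68 ± 0.401, which also lay within their spread of one another. The intron correction was largest for PYE, whose gene is 1.64 times as long as its exons.

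**Figure D2:**
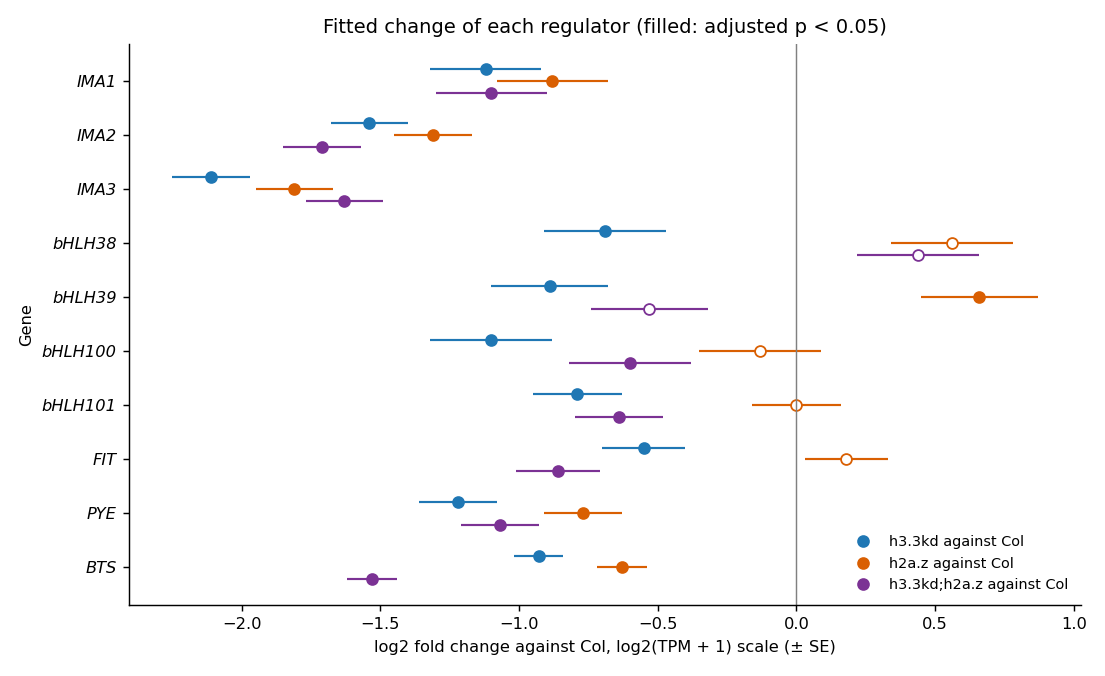
Fitted log2 fold change against Col on the log2(TPM + 1) scale (x axis, bars ± SE) of each regulator (y axis) in h3.3kd, h2a.z and the double mutant, filled where the adjusted p was below 0.05. All h3.3kd points lie below 0, from -2.11 for IMA3 to -0.55 for FIT, and the h2a.z points of the bHLH genes and FIT lie from -0.13 to 0.66.

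Adding the h2a.z mutation to h3.3kd changed 3 of the 10 regulators, where 34.7% of all genes were called (20.9% higher and 13.8% lower). The libraries of the 2 genotypes did not overlap for 5 regulators, against 47.3% of all genes. Of all called genes 3932 of 6536 were higher, and 3977 of 8021 with voom on the recovered reads. bHLH38 rose by 1.13 (SE 0.22, adjusted p = 0.00121) and IMA3 by 0.48 (adjusted p = 0.0161), and BTS fell by 0.59 (adjusted p = 0.000144), on the log2(TPM + 1) scale. The IMA3 rise was lost without h3.3kd replicate 1 (adjusted p = 0.0572) or 2 (0.0798) or double mutant replicate 1 (0.0526). The others were not called: bHLH100 at 0.5 (adjusted p = 0.0929), bHLH39 at 0.36, PYE at 0.15, bHLH101 at 0.14, IMA1 at 0.02, IMA2 at -0.17 and FIT at -0.31. Left-out libraries gave calls for bHLH100 (double mutant replicate 3, adjusted p = 0.0486) and for PYE (h3.3kd replicate 3, 0.35, adjusted p = 0.0262). bHLH100 was also called with a pseudocount of 0.1 (1.09, adjusted p = 0.0434) and with library weights (0.62, adjusted p = 0.0418).

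Adding reduced H3.3 to h2a.z lowered 5 of the 10 regulators and raised none, where 34.3% of all genes fell and 14.2% rose, 48.5% in all. With rescaled TPM 4923 of 9338 called genes were higher, against 2673 of 9140 as reported. The 2 genotypes did not overlap for 7 regulators, against 51.0% of all genes. bHLH39 fell by 1.19 (SE 0.21, adjusted p = 0.000351), FIT by 1.04 (adjusted p = 7.22e-05), BTS by 0.89 (adjusted p = 1.88e-06), bHLH101 by 0.65 (adjusted p = 0.00483) and IMA2 by 0.4 (adjusted p = 0.0283) on the log2(TPM + 1) scale. IMA2 was not called once TPM were rescaled (-0.26, adjusted p = 0.166), nor without h2a.z replicate 2 (0.0547) or 3 (0.0985) or double mutant replicate 1 (0.117), nor with voom on the recovered reads (-0.34, adjusted p = 0.227) or library weights (-0.35, adjusted p = 0.0713). bHLH101 lost its call with library weights (-0.42, adjusted p = 0.0595). The others were not called: bHLH100 at -0.47 (adjusted p = 0.095), PYE at -0.3 (0.0913), IMA1 at -0.22, bHLH38 at -0.11 and IMA3 at 0.18. bHLH100 was called without h2a.z replicate 3 (0.0408) or double mutant replicate 2 (0.00833), and PYE without h3.3kd replicate 3 (0.0204). PYE was also called with a replicate block (adjusted p = 0.046) and when only the genotypes compared were fitted (adjusted p = 0.0209).

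The interaction term measures how far the effect of reduced H3.3 in the h2a.z background lies from its effect in Col, on the log2(TPM + 1) scale. It was above 0 and called for 4 of the 10 regulators and below 0 for none, against 7.39% of all genes called above 0 and 10.1% below (17.5% in all). The 4 were IMA3 at 2.29 (SE 0.2, adjusted p = 3.73e-06), IMA2 at 1.14 (SE 0.2, adjusted p = 0.00124), PYE at 0.92 (SE 0.2, adjusted p = 0.0056) and IMA1 at 0.9 (SE 0.29, adjusted p = 0.0439). On this scale a gene near 0 TPM can fall little further, which moves the term upward where both single mutants fell far. IMA3, at 0.912 TPM in h3.3kd and 1.34 in h2a.z, is not free of that limit. With limma voom on the recovered reads, without the added 1 TPM, the term was 3.28 for IMA3 (adjusted p = 2.1e-06). It was 1.2 for IMA2 (0.00491), 0.94 for PYE (0.00334) and 1.05, not called, for IMA1. The IMA1 call was lost without any 1 of 9 of the 12 libraries (adjusted p from 0.0637 to 0.1), holding without Col replicate 2, h3.3kd replicate 3 or double mutant replicate 1. It was also lost with a pseudocount of 0.1 (adjusted p = 0.0574), no filter (0.0752), library weights (0.0667) and voom (0.0661). bHLH100 was at 0.64 (adjusted p = 0.177), bHLH38 at 0.58 (0.228), bHLH101 at 0.14, BTS at 0.04 (SE 0.13, adjusted p = 0.863), bHLH39 at -0.3 and FIT at -0.49 (0.14). FIT passed without Col replicate 3 (-0.68, adjusted p = 0.0241) and with library weights (-0.58, adjusted p = 0.0457).

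The same contrast can be read from percentages of the Col mean. IMA3 stood at 12.6% in h3.3kd and 18.6% in h2a.z, whose product is 2.36%, while the double mutant held 23.1%, which is 9.8 times the product. The ratio of the double mutant to the product was 2.31 for IMA2, 1.94 for IMA1 and 1.9 for PYE. It was also above 1 for bHLH100 (3.07), bHLH38 (2.09) and bHLH101 (1.23), without a called interaction. The bHLH100 ratio is imprecise: the gene was read 6, 6 and 11 times in h3.3kd, and the double mutant libraries had 0.657, 1.82 and 0.565 TPM. For BTS the product was 33.2% and the double mutant stood at 34%, a ratio of 1.02. FIT, at 50.3% against a product of 72.3%, and bHLH39, at 64.8% against 80.7%, were below their products, without a called interaction.

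**Figure D3:**
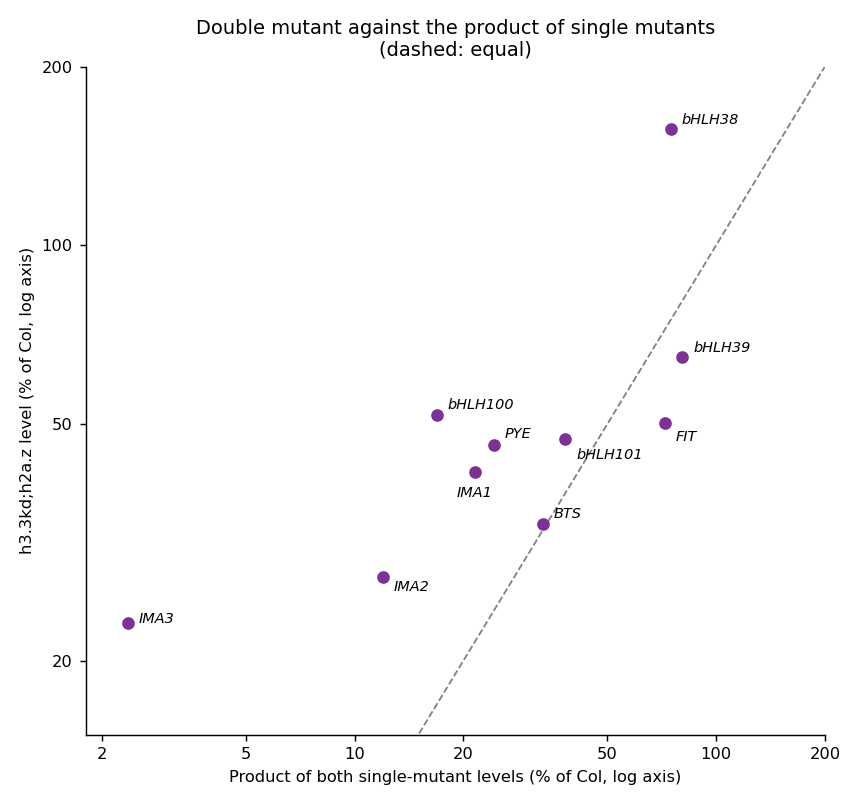
Level of each regulator in the double mutant (y axis) against the product of its levels in both single mutants (x axis), each as a percentage of the Col mean over 3 libraries, both on log axes, with equality dashed. IMA3 lies farthest above the line at 23.1% against 2.36%, BTS lies on it, and FIT and bHLH39 lie below it.

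By the shape of change over the 9 mutant libraries, measured as the mean absolute difference of log2(TPM + 1) minus the Col mean, PYE and IMA1 were each other's nearest of all tested genes (0.13). CAX1 was the second nearest to both, at 0.17 for IMA1 and 0.16 for PYE. The gene nearest to BTS was ZIF1 (0.09), followed by FAF1 (0.12) and CRK40 (0.12). The regulator nearest to BTS was PYE at 0.29, at rank 124 among all tested genes. FIT was nearest to AT5G50110 (0.08), AT3G02250 (0.09) and FUT13 (0.1), and bHLH39 to AT4G15740, RABC2b and LOB (0.2 each). Neither FIT nor bHLH39 had another regulator among its 3 nearest genes. For both the nearest regulator was bHLH101, at 0.29 (rank 1251) for FIT and 0.39 (rank 590) for bHLH39.

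The upstream bHLH genes of clades IVc and IVb changed by at most 0.36 on the log2(TPM + 1) scale against Col, in either direction. Counts called in this and the following lists are to be read against the shares of all genes in the same comparisons, which were 26.7% lower and 9.12% higher in h3.3kd, 18.3% and 28.9% in h2a.z, then 30.7% and 20.3% in the double mutant. Of 6 bHLH genes of clades IVc and IVb, 4 fell in h3.3kd: URI (-0.36), bHLH34 (-0.33), bHLH104 (-0.29) and ILR3 (-0.19), while bHLH115 rose (0.15). In h2a.z bHLH34 (-0.36) and bHLH115 (-0.28) fell, and in the double mutant bHLH34 (-0.26) did. The median log2 fold change of the 6 was -0.24, -0.16 and -0.1 in h3.3kd, h2a.z and the double mutant, where the median over all genes was -0.11, 0.06 and -0.07. Both relatives of BTS, the ligase genes BTSL1 and BTSL2, fell wherever H3.3 was reduced, by 0.67 and 0.39 in h3.3kd and by 0.95 and 0.42 in the double mutant. In h2a.z BTSL2 rose (0.65), from 8.7 ± 0.594 to 14.2 ± 1.11 TPM (SD, n = 3). Of the clade IVa partners of FIT, bHLH20 alone of 4 passed the filter; it fell by 0.89 in the double mutant and by 0.72 in h3.3kd. Of 7 other regulators 5 were tested, and 3 fell in h3.3kd, namely MED16 (-0.49), ZAT12 (-0.38) and EIN3 (-0.21), whereas ZAT12 (0.54) and EIL1 (0.4) rose in h2a.z and MED16 (-0.43) and EIN3 (-0.2) fell in the double mutant.

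Downstream, no root uptake gene fell in h3.3kd, where the clade Ib genes and FIT did. Of 7 tested, 3 rose there: IRT2 (0.73), PDR9 (0.4) and AHA2 (0.19). In h2a.z the iron transporter genes IRT2 (1.02) and IRT1 (0.78) and the ferric reductase gene FRO2 (0.74) rose. IRT1 stood at 19 ± 5.88 TPM in Col, with h3.3kd at 17.9 ± 4.55, h2a.z at 32.5 ± 2.28 and the double mutant at 12 ± 4.17 (SD, n = 3). In the double mutant 4 fell, namely CYP82C4 (-0.9), IRT1 (-0.64), F6'H1 (-0.64) and FRO2 (-0.57), and IRT2 rose (0.81). The interaction was below 0 and called for all 7, where 10.1% of all genes were called below 0 and 17.5% in all. It ran from -1.36 for IRT1 to -0.27 for AHA2, the opposite sign to that of the IMA genes and PYE. It was also below 0 and called for 4 of 11 root marker genes, and whether a shift in root share bears on it was not tested. The list medians were 0.07, 0.24 and -0.57 in h3.3kd, h2a.z and the double mutant.

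Of 14 genes of iron chelation and distribution, 7 fell and 3 rose in h3.3kd, 5 fell and 1 rose in h2a.z, and 8 fell and 4 rose in the double mutant, with medians of -0.27, -0.13 and -0.34. All genes were called at 35.9%, 47.2% and 51.0% in either direction, and the 6 of 14 called in h2a.z were below that share. NAS4 and ZIF1 are known targets of repression by PYE. NAS4, a nicotianamine synthase gene, fell by 1.26 in the double mutant, by 1.17 in h3.3kd and by 0.41 in h2a.z on the log2(TPM + 1) scale. ZIF1, a vacuolar nicotianamine transporter gene, fell by 1.43, 1.06 and 0.63 in the same order. NAS3 fell in h3.3kd (-0.94), and YSL1 (-0.58) and NRAMP4 (-0.56) fell in h2a.z. The citrate exporter gene FRD3 rose in all 3 (1.15, 0.39 and 1.55), and NAS2 rose in the double mutant (1.63). Among 7 iron storage genes, 3 rose and 1 fell in h3.3kd, while 1 rose and 3 fell in h2a.z. In the double mutant 2 rose and 2 fell. The list medians were 0.37, -0.32 and 0.18 in h3.3kd, h2a.z and the double mutant. The 4 of 7 called in each genotype lay near the share of all genes called in h2a.z and the double mutant. In h3.3kd VTL5 (0.82) and FER1 (0.37) rose beside FER4, and VTL2 fell (-0.63). In h2a.z FER2 (-0.83) and FER1 (-0.32) fell, and in the double mutant FER1 rose (0.34) and VTL2 fell (-0.81). The ferritin gene FER4 rose in all 3 (0.81, 0.45 and 1.1), whereas FER3 fell by 0.92 in the double mutant and by 0.78 in h2a.z.

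**Figure D4:**
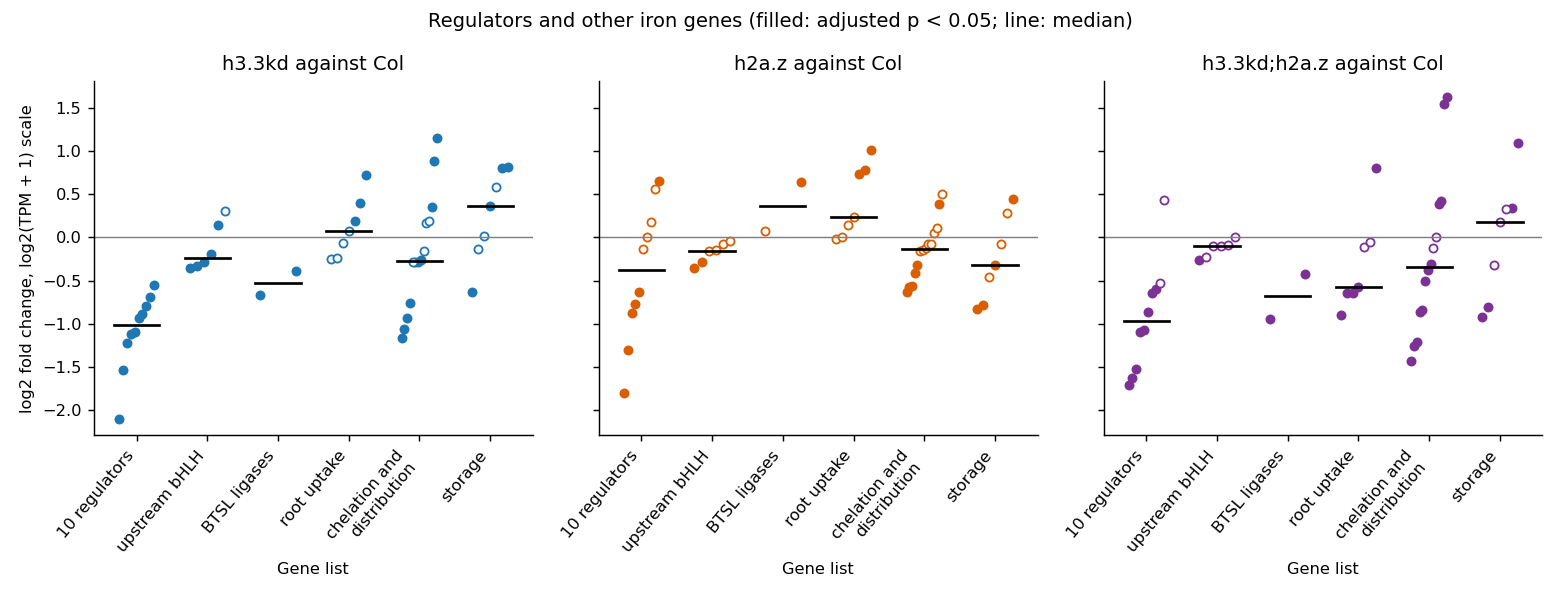
Fitted log2 fold change against Col (y axis, log2(TPM + 1) scale) of each tested gene in the 10 regulators and 5 other gene lists, 1 panel per mutant genotype, filled where the adjusted p was below 0.05, with list medians as lines. The regulators lie lowest in h3.3kd (median -1.02), while the upstream bHLH genes lie near 0 and the median of the root uptake genes is 0.24 in h2a.z but -0.57 in the double mutant, with IRT2 above 0 in both.

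In whole seedlings, fewer cells of a type and less RNA per cell cannot be told apart. The summed level of 12 root marker genes was 140 to 156 TPM in Col, 167 to 175 in h3.3kd, 189 to 214 in h2a.z and 176 to 217 in the double mutant. The largest contributors were SCR, at 75.3 ± 1.94 TPM in Col and 112 ± 6.62 in the double mutant, and CASP1, at 28.3 ± 4.3 and 37.9 ± 7.55 (SD, n = 3). The list median was 0.17, 0.4 and 0.06 in h3.3kd, h2a.z and the double mutant, where WER, RHD6, MYB36, PLT1, PLT2 and SKOR had lower means than in Col. None of the 12 was at 0 in every library of a genotype. Of the 11 tested, 2 rose in h3.3kd, 6 rose and 1 fell in h2a.z, and 3 rose in the double mutant, where 20.3% of all genes rose and 51.0% were called. The summed level of 8 shoot marker genes was 31100 to 34000 TPM in Col, 37500 to 39200 in h3.3kd, 28600 to 34100 in h2a.z and 35300 to 40300 in the double mutant, most of it RBCS1A (23500 ± 1050 in Col and 29000 ± 1780 in the double mutant). Of the 8, 4 rose and 1 fell in h3.3kd, 1 rose and 3 fell in h2a.z, and 2 rose and 3 fell in the double mutant, the 3 being PSAD1, GL1 and TCP4. LHCB1.1 had 4580 ± 389 TPM in Col and 3860 ± 459 in the double mutant, not called. The part of these shifts in the results above was not tested.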

How the data were processed

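Libraries were made from total RNA (Takara MiniBEST, NEBNext Ultra, per the labels). Per the submitters' processing notes, the build was TAIR10 and the tools included DESeq2 1.26.0, HTSeq 0.11.2, HISAT2 2.1.10 and fastp 0.20.1; their roles and order are not given. The authors deposited TPM, 1 column per library; each column sums to 1000000. How TPM was computed is not stated: whole reads came out with the gene's length from start to end in RefSeq TAIR10.1 (23728 genes matched, 165 not). That length, introns included, sets the level of a gene but not its fold change. Gene positions and sequences are RefSeq's; the deposited table holds none.

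Log2(TPM + 1) of the 18851 genes with a mean of at least 1 TPM was fitted with limma 3.58.1 (trend, R 4.3.3) over all 4 genotypes without a replicate term (8 residual degrees of freedom), with p-values adjusted over all genes tested in each of 6 comparisons. The procedure was tested on simulated data. Every one of the 10 regulators is named in every comparison; of each other list up to 4 called genes of the largest change are named for each mutant against Col, and values named beyond them were chosen after they were seen. The members and lists were chosen with earlier results of these data known. Alternatives were a pseudocount of 0.1 or 0.5, no filter, rescaled TPM (median of ratios), a replicate block, library weights, fitting only the genotypes compared, and leaving out each library; limma voom on the recovered reads was chosen after seeing the data.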

Additional observations from a re-analysis of the deposited data

Results flagged for a closer look

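The effect of reduced H3.3 differed between the Col and the h2a.z background for 4 of the 10 regulators, by a test of the difference itself (the interaction term in limma, on the log2(TPM + 1) scale). All 4 were above 0, where 7.39% of all genes were called above 0 and 17.5% in all. HTA9 was higher in the double mutant than in h2a.z (log2 difference 0.87, adjusted p = 1.63e-06), and its part in these differences was not tested. IMA3 differed by 2.29 (SE 0.2, adjusted p = 3.73e-06): it fell by 2.11 in Col and was at 0.18 in h2a.z. On this scale a gene near 0 TPM can fall little further, which moves the IMA3 difference upward. With limma voom on the recovered reads, without the added 1 TPM, the IMA3 difference was 3.28 (adjusted p = 2.1e-06). For IMA2 the difference was 1.14 (SE 0.2, adjusted p = 0.00124), with a fall by 1.54 in Col and by 0.4 in h2a.z. PYE differed by 0.92 (SE 0.2, adjusted p = 0.0056), with a fall by 1.22 in Col and a value of -0.3, not called, in h2a.z. IMA1 differed by 0.9 (SE 0.29, adjusted p = 0.0439), a call that was lost in 9 of 12 fits without 1 library (adjusted p from 0.0637 to 0.1) and with a pseudocount of 0.1, no filter, library weights or voom (adjusted p from 0.0574 to 0.0752).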

How the results depend on the processing

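With 1 library left out, the regulators called numbered 9 to 10 in h3.3kd, 5 to 7 in h2a.z, 7 to 9 in the double mutant, 2 to 4 for the double mutant against h3.3kd, 4 to 6 against h2a.z and 3 to 4 for the interaction. In those 720 fits of a gene in a comparison, 662 kept direction and call, 27 lost a call, 17 gained one and 14 changed sign; under the other settings 438 of 468 kept both, 10 lost a call, 11 gained one and 9 changed sign. No called value changed sign. Library weights left 3 regulators called for the double mutant against h2a.z, not 5; the cause was not tested. The sign changes were bHLH101 in h2a.z (-0.01 and -0.0 with pseudocounts 0.1 and 0.5, -0.05 rescaled, -0.15 with library weights, -0.17 with voom), IMA1 for the double mutant against h3.3kd (-0.01 rescaled and with voom), bHLH38 for the double mutant against h2a.z (0.0 rescaled) and the BTS interaction (-0.01 with library weights). Without 1 library these ran from -0.1 to 0.18, -0.27 to 0.3, -0.33 to 0.08 and -0.03 to 0.14; bHLH100 in h2a.z ran from -0.32 to 0.03, PYE against h3.3kd from -0.01 to 0.35 and the bHLH101 interaction from -0.03 to 0.27.

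Over all genes tested, replicate numbers did not pair the libraries. None of 18 same-numbered pairs correlated above 0.1 (r from -0.17 to 0.077), and 1 of 12 libraries was closest to its own number. This does not settle it for single genes: PYE and IMA2 were lowest in replicate 1 of every genotype, whereas the other regulators were not. With the replicate block 10, 6 and 9 regulators were called in h3.3kd, h2a.z and the double mutant, bHLH39 being gained in the last (adjusted p = 0.00562). The block also took the adjusted p of bHLH39 in h3.3kd from 0.00491 to 0.000325. Rescaling moved the median log2 change of all genes in h3.3kd from -0.107 to 0.002 and, against h2a.z in the double mutant, from -0.1207 to 0.0162. With voom 3744 of 7418 called genes in h3.3kd, 4635 of 9464 in h2a.z, 5280 of 10522 in the double mutant and, against h2a.z, 4937 of 9450 were higher. Depth limits bHLH38, bHLH100 and bHLH101, with 6 to 67 reads per library. It also limits the IMA genes in h2a.z replicate 1, where IMA1, IMA2 and IMA3 were read 11, 18 and 10 times. IMA3 was read 34, 25 and 57 times in the h3.3kd libraries. Intervals for such counts would cover counting error only.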

Other observations

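With limma voom on the recovered reads, which does not add a pseudocount of 1 TPM, the falls of the low genes were larger. IMA3 fell by 2.88 in h3.3kd, by 2.48 in h2a.z and by 2.07 in the double mutant (log2 scale). bHLH101 fell by 1.28 in h3.3kd and by 1.04 in the double mutant. Below the filter, MYB10, which encodes a root factor that activates NAS4, stood at 0.923 ± 0.129 TPM in Col, with h3.3kd at 0.394 ± 0.0959 and h2a.z at 0.139 ± 0.199 (SD, n = 3), and was listed at 0 in every double mutant library. Its relative MYB72 stood at 0.173 ± 0.0266 TPM in Col, with h3.3kd at 0.254 ± 0.0592, h2a.z at 1.03 ± 0.215 and the double mutant at 0.716 ± 0.11. Neither gene was tested, and both were singled out after their values were seen.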
